A study of Danio rerio with 9 samples.

Results

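The transcription factors Ptf1a and Vsx1 mark the interneurons of the retina, and their transcripts were followed here on 9 arrays of eyes dissected from zebrafish embryos. The probe sets were chosen by annotated gene symbol: of 15617 probe sets on the array, 1 was annotated as ptf1a and 1 as vsx1, which makes 2 of the 8793 genes named on it. Each condition had 1 array. The conditions were ethanol eyes at 27, 30, 36 and 48 hours post fertilization (hpf), control eyes at the same 4 stages, and untreated eyes at 24 hpf, before treatment. All embryos were kept at 28.5 deg C; the strain, the number of eyes pooled for an array and the ethanol dose and its hours are not stated in the labels. By its title, the study concerned gene expression in the eye after embryonic ethanol exposure and the role of Heat Shock Factor 1.

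In the vertebrate retina, dividing progenitors give rise to ganglion cells, horizontal and amacrine cells, photoreceptors, bipolar cells and Müller glia. Ptf1a is a basic helix-loop-helix (bHLH) factor that acts in a complex with an E protein and an Rbpj protein. It is switched on transiently in precursors that leave the cell cycle as amacrine or horizontal cells, the inhibitory interneurons, and it also acts in the hindbrain, cerebellum and pancreas. Vsx1 is a paired-like homeodomain factor of bipolar cells, the excitatory interneurons that link photoreceptors to ganglion cells. In zebrafish it is weakly expressed in retinal progenitors before it becomes strong in bipolar cells.

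Values are MAS5 signals, a brightness per probe set that the authors had scaled to a common level, with a mean of about 125 on every array after trimming 2% at each end. Brightness depends on the probes, so the levels of different genes were not compared with one another. Sums of signals over a gene list are given, and in these bright probe sets weigh most. Differences are on the log2(signal + 5) scale, so changes of dim probe sets are understated. Since no condition was repeated, tests took their error from the scatter of the 4 stage differences or of the arrays around a line. In limma's fits, each probe set's variance was also drawn toward a value common to all tested probe sets. The p-values therefore cover that scatter alone, as changed by this step, and some of it may be technical. The treatment characteristic contradicted the title for 3 samples, namely the 30 and 36 hpf ethanol arrays, marked as untreated, and the 36 hpf control, marked as ethanol. Groups followed the titles, and the tested results are also given under the other label. Eye markers were read by signal alone, without detection calls. The eye field factor pax6a had signals of 824 to 1121 in ethanol eyes and 944 to 1053 in control eyes. Other retinal progenitor genes were less steady. Rx1 had 23.2 to 42.5 in ethanol eyes and 11.0 to 39.5 in control eyes, and lhx2a was too dim to be tested. How much of each sample was eye tissue was not tested. In bulk eyes, fewer cells of a type and less RNA per cell cannot be told apart.

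Both genes rose steeply between 24 and 48 hpf, and only for vsx1 did ethanol eyes differ from control eyes by the test. In ethanol eyes vsx1 had signals of 45.8 (27 hpf), 50.5 (30 hpf), 249 (36 hpf) and 520 (48 hpf). In control eyes it had 81.9 (27 hpf), 95.9 (30 hpf), 363 (36 hpf) and 922 (48 hpf), and the untreated eyes at 24 hpf had 59.0. The ethanol array was the lower of the pair at every stage, and the 27 and 30 hpf ethanol arrays were the lowest of all 9, below even the 24 hpf array.

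In ethanol eyes ptf1a had signals of 8.70 (27 hpf), 11.1 (30 hpf), 113 (36 hpf) and 145 (48 hpf). In control eyes it had 4.94 (27 hpf), 19.5 (30 hpf), 122 (36 hpf) and 184 (48 hpf), and the untreated eyes had 6.07. The ethanol array was the higher of the pair at 27 hpf and the lower at the other stages. All 5 signals at 24, 27 and 30 hpf lay below the array medians of 36.8 to 45.0 and below the mean signal of 22.7 that a probe set needed to be tested. The probe set was tested because of its signals at 36 and 48 hpf. No detection calls were used here, so whether the early values stand above background is unknown.

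**Figure D1:**
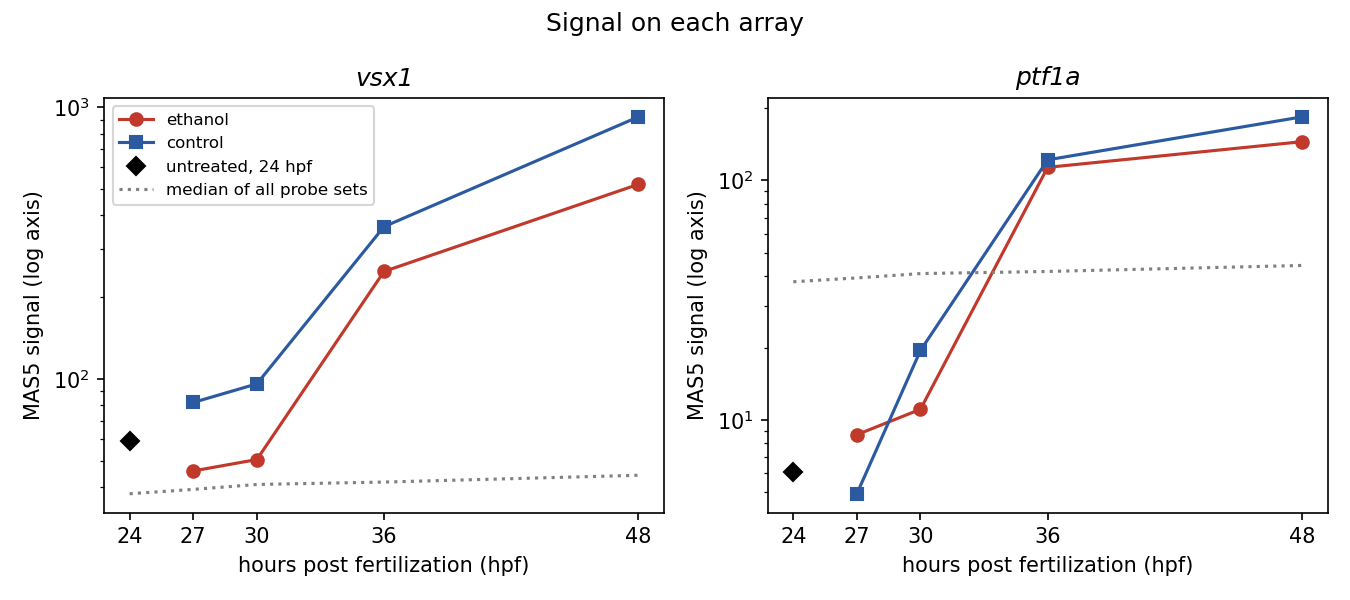
MAS5 signal (log axis) of vsx1 and ptf1a against hours post fertilization, with 1 array per point; red circles are ethanol eyes, blue squares control eyes, black diamonds the untreated 24 hpf eyes, and the dotted line is the median of all probe sets, averaged over the arrays of a stage. The ethanol points of vsx1 lie under the control points at all 4 stages, whereas those of ptf1a lie above at 27 hpf and within 0.10 (log2) at 36 hpf.

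The largest step of vsx1 on the log2 scale fell between 30 and 36 hpf. Its signal rose 4.92-fold over those hours in ethanol eyes and 3.79-fold in control eyes. From 36 to 48 hpf the steps were 2.09-fold in ethanol eyes and 2.54-fold in control eyes. From 27 to 30 hpf the log2 step was only 0.13 in ethanol eyes and 0.22 in control eyes. Each of these steps compares 2 single arrays and has no replicate check.

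The largest step of ptf1a on the log2 scale also fell between 30 and 36 hpf, where its signal reached 113 in ethanol eyes and 122 in control eyes. No fold is given for that step, since it is unknown whether the 30 hpf values stand above background. From 36 to 48 hpf the step was 1.28-fold in ethanol eyes and 1.51-fold in control eyes. In control eyes at 36 hpf, ptf1a stood at 66.2% of its own 48 hpf signal and vsx1 at 39.4% of its own. Against the same 48 hpf control values, ethanol eyes at 36 hpf reached 61.6% for ptf1a and 27.0% for vsx1.

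Over the 9 arrays, limma's slope on hpf with ethanol as a term gave a rise of 4.07 ± 0.34 (log2 per 24 hours, SE; adjusted p = 1.67e-05) for vsx1 and 4.44 ± 0.62 (adjusted p = 2.65e-04) for ptf1a. Of 9301 probe sets tested, 9.07% were called rising and 7.39% falling (adjusted p under 0.05 and at least a 2-fold change). A steeper fitted slope than that of vsx1 was found for 22 probe sets. The slope of ptf1a takes in 5 early values not known to stand above background, so its size is uncertain and it was not ranked. Its late signals also brought it past the filter, so its call as rising is not independent of that choice. A straight line describes the stepwise rise poorly: without the 48 hpf arrays the slope was 8.01 for ptf1a and 5.57 for vsx1.

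Ordered by level, the 36 and 48 hpf arrays of vsx1 stood above all earlier ones, and each of their ethanol arrays stood directly under its control. The earlier arrays did not follow the stages, since the 30 hpf ethanol array lay under the 24 hpf untreated and the 27 hpf control array. The fit across stages, with its variance drawn toward the common value, gave a spread of 0.25 (log2) for the difference of 2 arrays of vsx1. The SD of its own 4 stage differences was 0.14. The 27 hpf ethanol, 30 hpf ethanol and 24 hpf untreated arrays followed each other in gaps of 0.13 and 0.21, and the 27 and 30 hpf controls differed by 0.22, all within that spread. The other steps exceeded it, namely those from the 24 hpf untreated to the 27 hpf control array (0.44) and onward to the 36 hpf ethanol (1.33), 36 hpf control (0.54), 48 hpf ethanol (0.51) and 48 hpf control array (0.82). For ptf1a the spread from the fit was 0.36, and the SD of its own 4 stage differences was 0.46. The 4 arrays at 36 and 48 hpf followed each other in gaps of 0.10, 0.24 and 0.33, none beyond either value. Between the stages, the control step from 36 to 48 hpf was 0.58, beyond both values, and the ethanol step was 0.34, within both. Among neighbours in the order by level, the steps of ptf1a beyond its spread were those to the 30 hpf control (0.61) and from it to the 36 hpf ethanol array (2.27). Both start from signals not known to stand above background, and the first also ends at one.

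The ethanol comparison asks whether eyes exposed to ethanol differed from stage-matched controls. For vsx1 the log2 difference, ethanol minus control, was -0.77 (27 hpf), -0.86 (30 hpf), -0.54 (36 hpf) and -0.82 (48 hpf). As signals, the ethanol eyes held 56.0% (27 hpf), 52.7% (30 hpf), 68.4% (36 hpf) and 56.5% (48 hpf) of the control level. The 4 differences thus lay close together, with an SD of 0.14 around a mean of -0.75. In limma's fit with stage as a block, vsx1 fell by 0.75 (SE 0.13, adjusted p = 0.032 over 9301 probe sets), a level 1.68-fold lower in ethanol eyes. In that fit 2.25% of probe sets were called, 1.62% higher and 0.624% lower (shares of all tested), and 38 had a lower mean difference than vsx1. Being below control at all 4 stages is by itself common, since 14.4% of tested probe sets were.

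The call for vsx1 was close to its threshold, although the size of the difference changed little. The adjusted p lay between 0.016 and 0.48 over the alternatives that keep the titles' labels, and the difference between -0.68 and -0.88. The call was lost without the 27 hpf (adjusted p = 0.0626), 30 hpf (0.122) or 36 hpf arrays (0.127) and held without the 48 hpf arrays (0.0447). With groups taken from the treatment characteristic, which turns the 36 hpf pair round and leaves no pair at 30 hpf, the difference was -0.35 ± 0.33 (SE, adjusted p = 1.00 by limma).

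For ptf1a the difference changed sign between stages, with 0.46 (27 hpf), -0.61 (30 hpf), -0.10 (36 hpf) and -0.33 (48 hpf). The 2 largest of these in size, at 27 and 30 hpf, rest on signals under 20. At the bright stages the ethanol eyes held 93.1% of the control signal at 36 hpf and 78.8% at 48 hpf. The mean difference was -0.14 ± 0.18 (log2, SE; adjusted p = 0.665 by limma), so it was not called, and the error leaves room for a fall of the size seen at 48 hpf. Without the 30 hpf arrays the mean was 0.010, and with the treatment characteristic it was 0.076.

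**Figure D2:**
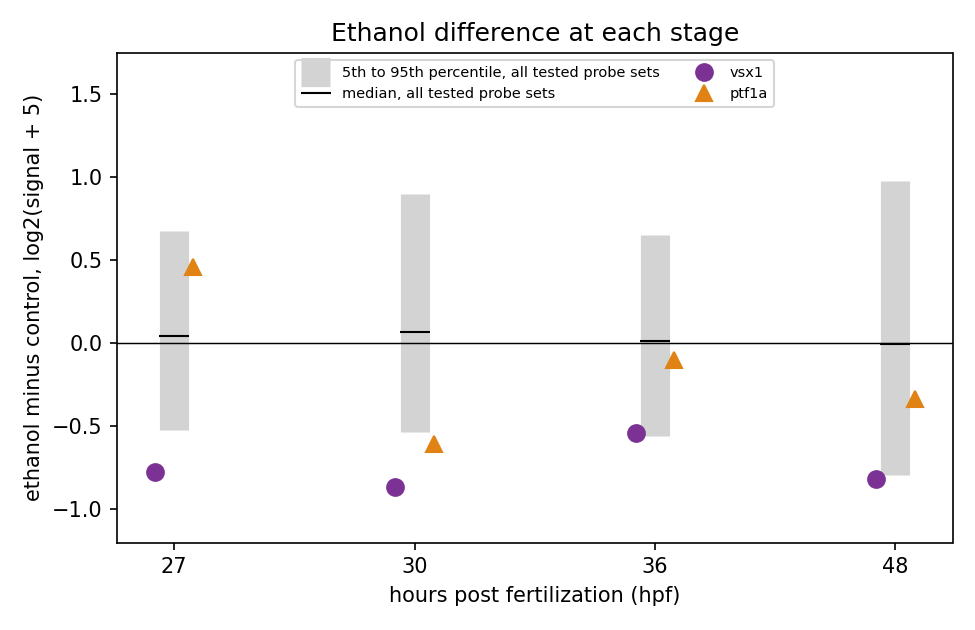
Difference between the ethanol and the control array at each stage, in log2(signal + 5), for vsx1 (purple circles) and ptf1a (orange triangles); grey bars span the 5th to 95th percentile of the 9301 tested probe sets and black ticks their median. At 27, 30 and 48 hpf vsx1 lies below the grey bar, and at 36 hpf it lies just inside it at -0.54, while ptf1a lies below the bar only at 30 hpf.

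Whether the 2 genes differed in their response could not be decided with 4 stages. At all 4 stages the ethanol difference was lower for vsx1 than for ptf1a, by 0.60 ± 0.43 on average (log2, SD, n = 4 stages). An exact two-sided sign-flip test gave p = 0.125, which is the smallest p that 4 stages allow, so it could not have reached 0.05. The genes lay furthest apart at 27 hpf (-0.77 against 0.46), where the ptf1a signals of 8.70 and 4.94 are not known to stand above background. At 36 hpf the values were -0.54 for vsx1 and -0.10 for ptf1a, and at 48 hpf -0.82 and -0.33. The product of hpf and ethanol, which asks whether the ethanol difference changes steadily with stage, gave 0.03 ± 0.72 for vsx1 (adjusted p = 0.993, limma) and -0.45 ± 1.30 for ptf1a (adjusted p = 0.925), in log2 per 24 hours with SE. Of all tested probe sets, 0.118% were called in that fit. Both errors are wide beside the vsx1 difference itself, so a change with stage was not detectable here unless it was large.

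Placed on the line through the control values, the ethanol signal of vsx1 at 48 hpf matched 40.6 hpf and that at 36 hpf matched 34.3 hpf. The 27 and 30 hpf values could not be placed, since they lay under every control value. For ptf1a the 48 hpf ethanol value matched 41.0 hpf and the 36 hpf value 35.7 hpf, and the dim values at 27 and 30 hpf were not placed. These are interpolations between single arrays with no error attached.

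Of 40 genes of amacrine and horizontal cell fate, 24 were on the array and 21 bright enough to be tested, ptf1a included. Of these, 16 were called rising and 0 falling, where 9.07% and 7.39% of all tested probe sets were. Ptf1a and prox1a passed the filter by their late signals, so the count of rising genes is not fully independent of it. For ethanol 0 were called, where 2.25% of all tested probe sets were. The median slope was 2.07, against -0.04 over all tested probe sets (log2 per 24 hours). The other 5 were not called, among them neurod6b, meis1b and meis1a with slopes of -0.16, -0.06 and -0.80. Foxn4, which acts upstream of Ptf1a in the mouse retina, was at its highest earlier than ptf1a in control eyes. Its signal was 300 at 30 hpf, 806 at 36 hpf and 807 at 48 hpf in ethanol eyes, against 430 at 30 hpf, 697 at 36 hpf and 395 at 48 hpf in control eyes. The control level was thus past its highest value at 48 hpf and the ethanol level was not, a difference of 1.02 at that stage between 2 arrays (mean over stages 0.23 ± 0.22, adjusted p = 0.552).

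The AP-2 factors tfap2a and tfap2b, which lie downstream of Ptf1a in the mouse, continued to rise to 48 hpf. The signal of tfap2b was 58.0, 83.2, 129 and 403 in ethanol eyes from 27 to 48 hpf, against 43.0, 78.1, 246 and 558 in control eyes, and its slope was 3.36 ± 0.29 (adjusted p = 1.93e-05). Its ethanol difference was above 0 at 27 and 30 hpf and below 0 at 36 and 48 hpf (mean -0.22 ± 0.21, adjusted p = 0.549). For tfap2a the signal at 48 hpf was 916 in ethanol eyes and 989 in control eyes, with a mean ethanol difference of 0.03 ± 0.13 (adjusted p = 0.901).

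Among further fate factors, barhl2, of amacrine and ganglion cells, had a slope of 2.80 ± 0.25 (adjusted p = 2.02e-05) and reached 807 in ethanol eyes and 775 in control eyes at 48 hpf. The horizontal cell factor prox1a had a slope of 3.45 ± 0.31 (adjusted p = 2.10e-05) and reached 173 in ethanol eyes and 102 in control eyes. Its signals at 24, 27 and 30 hpf were 8.94 to 14.3, under the mean of 22.7 needed for testing. As for ptf1a, late signals brought prox1a past the filter, so its call as rising is not independent of that choice. The largest mean ethanol differences of the list were those of lhx1a, a LIM homeodomain factor of horizontal cells (0.61 ± 0.23, adjusted p = 0.156), and bhlhe22, a bHLH factor of amacrine and bipolar subtypes (-0.66 ± 0.17, adjusted p = 0.0722). Neither was called. The signal of bhlhe22 at 48 hpf was 347 in ethanol eyes and 670 in control eyes, and its difference was below 0 at all 4 stages, though only -0.06 at 36 hpf.

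Genes for the transmitters of these interneurons were mostly dim at these stages. Of 27 genes for GABA and glycine transmission and calcium-binding proteins, 16 were on the array and 6 were tested. Of the 6, 5 were called rising and 0 for ethanol, where 9.07% and 2.25% of all tested probe sets were. Among the rising genes, calb2a passed the filter by its later signals, since those at 24, 27 and 30 hpf were 10.4 to 22.6. The vesicular transporter gene slc32a1, which loads both transmitters into vesicles, had 428 in ethanol eyes and 519 in control eyes at 48 hpf. The GABA-synthesizing enzyme gene gad1b had 150 in ethanol eyes and 79.7 in control eyes at that stage, and gad2 84.6 in ethanol eyes and 39.2 in control eyes. Over the stages the mean difference was 0.30 ± 0.23 for gad1b (adjusted p = 0.466 by limma) and 0.41 ± 0.20 for gad2 (0.246). At 27 hpf both were below control, at -0.65 and -0.11. The calcium-binding protein gene calb2a went the other way at 48 hpf, with 67.1 in ethanol eyes and 155 in control eyes (mean over stages -0.43 ± 0.22, adjusted p = 0.284).

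Among the 9 bipolar cell genes tested, vsx1 was the only one called for ethanol, where 2.25% of all tested probe sets were. Of 39 listed, 13 were on the array and 9 tested. Over development 5 were called rising and 1 falling, where 9.07% and 7.39% of all tested probe sets were. The median ethanol difference was 0.04, as it was over all tested probe sets, with 5 genes above 0 and 4 below. Below control at all 4 stages were 2 of them, where 14.4% of all tested probe sets were. Above control at all 4 stages were 4 of them, and the share over all tested probe sets was not counted. The largest mean difference in size was that of otx2a (0.79 ± 0.20, adjusted p = 0.0719 by limma). Otx2a was also the list's falling gene (slope -1.02 ± 0.29), with 117 in untreated eyes at 24 hpf and 38.2 in control eyes at 48 hpf. Which cells gave its signal was not tested. Irx5a (0.65 ± 0.17) and ndnf (0.59 ± 0.14) also stood above 0, uncalled. Otx2b, a homeodomain factor of photoreceptors and bipolar cells, had 1251 in ethanol eyes and 937 in control eyes at 48 hpf (mean 0.04 ± 0.15, adjusted p = 0.895). The LIM homeodomain gene isl1a, of bipolar, amacrine and ganglion cells, had 161 in ethanol eyes and 305 in control eyes at 36 hpf, and 369 in ethanol eyes and 521 in control eyes at 48 hpf. It was below control at all 4 stages but not called (-0.43 ± 0.16, adjusted p = 0.145). The G-protein gamma subunit gene gng13b, of ON bipolar cells, had 693 in ethanol eyes and 1592 in control eyes at 48 hpf, while its mean over stages was -0.15 ± 0.28 (adjusted p = 0.783).

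**Figure D3:**
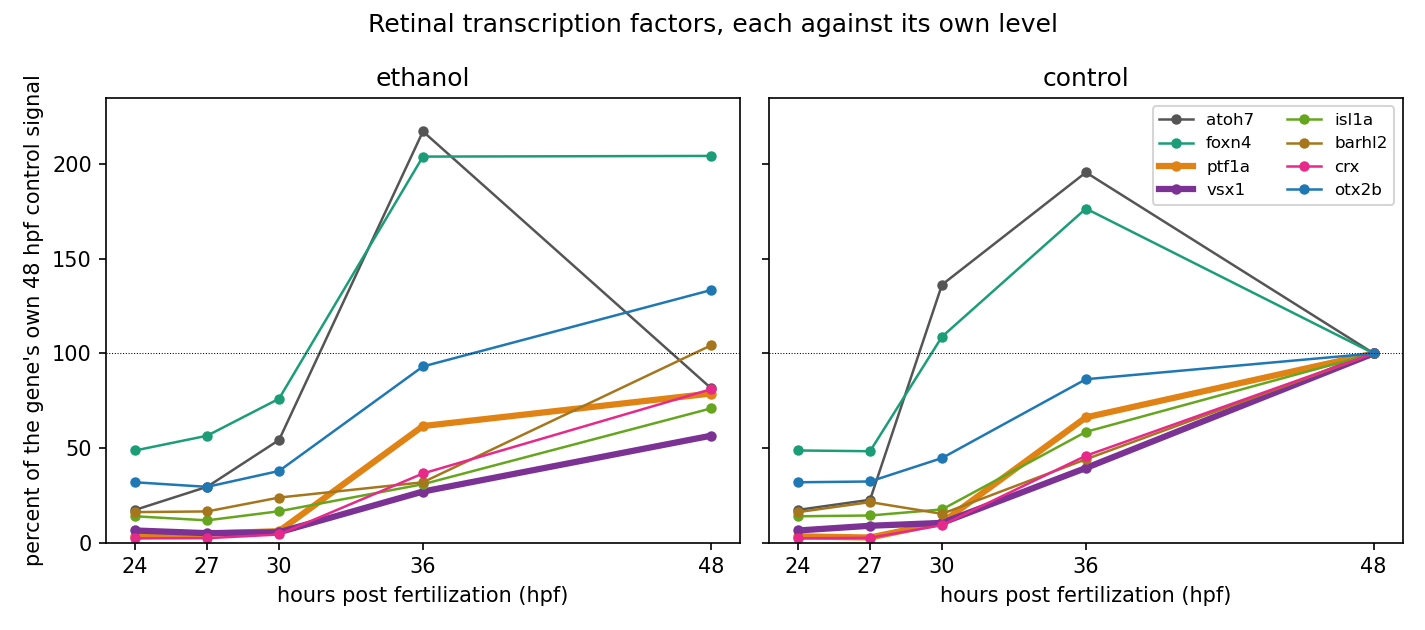
Signals of 8 retinal transcription factors from 24 to 48 hpf, each as a percentage of its own 48 hpf control signal, in ethanol eyes (left) and control eyes (right); both panels start at the untreated 24 hpf array, and each point is 1 array. In control eyes atoh7 and foxn4 are highest at 36 hpf, while ptf1a (66.2% at 36 hpf) and vsx1 (39.4%) are highest at 48 hpf; in ethanol eyes at 48 hpf ptf1a stands at 78.8% and vsx1 at 56.5%.

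Other retinal cell classes were measured beside these. Atoh7, the proneural factor of ganglion cells, was highest at 36 hpf, a stage before the highest signals of ptf1a and vsx1, with 143 at 30 hpf, 571 at 36 hpf and 215 at 48 hpf in ethanol eyes and 358 at 30 hpf, 514 at 36 hpf and 263 at 48 hpf in control eyes. The list of photoreceptor genes had 12 of 15 tested members below 0 and a median ethanol difference of -0.40, against 0.04 over all tested probe sets. The share of all tested probe sets below 0 was not counted. The list's only call was nr2e3, a nuclear receptor of photoreceptor fate (-0.88 ± 0.14, adjusted p = 0.032), which like vsx1 was below control at all 4 stages. Of all tested probe sets, 0.624% were called lower and 14.4% were below control at all 4 stages. Retinal progenitor genes had 0 of 30 called and a median of 0.23, and retinal ganglion cell genes 0 of 17 called and a median of 0.20. In the progenitor list the Notch ligand gene dla stood highest (0.73 ± 0.22, adjusted p = 0.0987) and hes6, a factor that promotes neuronal differentiation, lowest (-0.54 ± 0.13, adjusted p = 0.0583). Müller glia genes had 0 of 11 called, a median of 0.27, and rlbp1a, the retinaldehyde-binding protein gene, lowest at -0.73 ± 0.17 (adjusted p = 0.0577). Of the bHLH partners and regulators, 0 of 12 were called. Since only 2.25% of all tested probe sets were called for ethanol, 0 calls in lists this small say little about these cell classes. The E-protein genes tcf3a and tcf12, potential partners of Ptf1a, both stood at 0.36 (SE 0.18 and 0.13, adjusted p = 0.267 and 0.136).

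**Figure D4:**
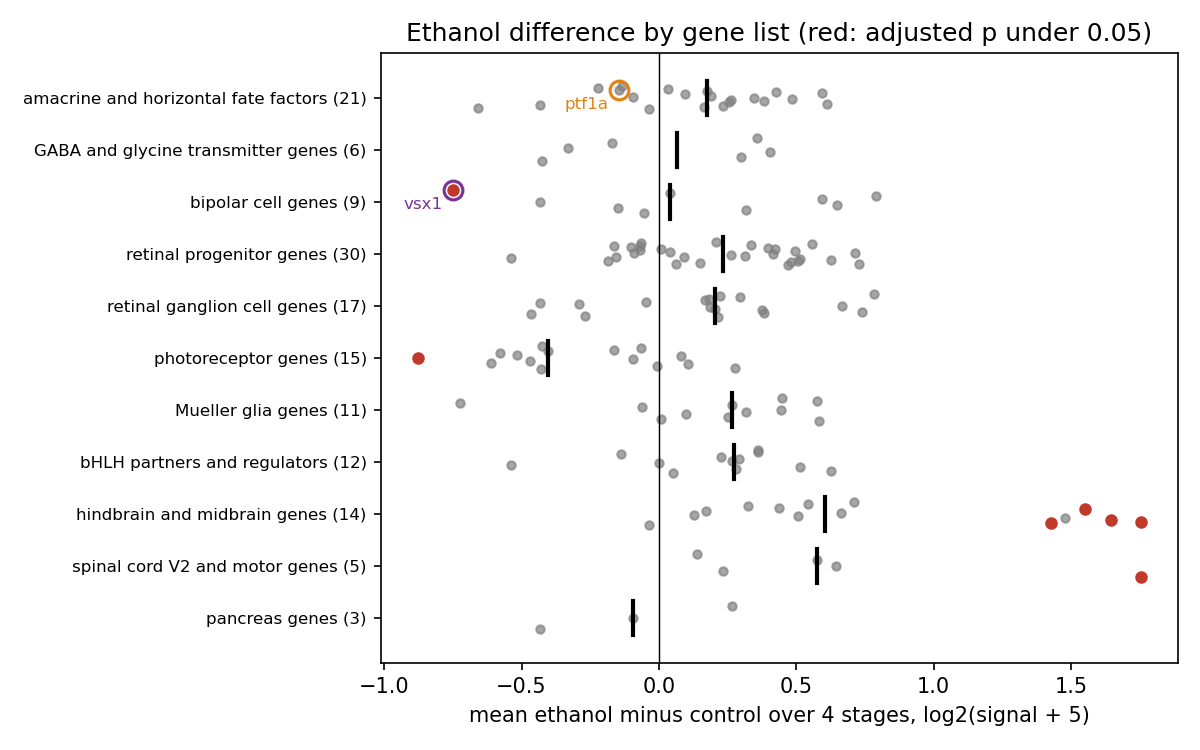
Mean ethanol minus control difference over 4 stages, in log2(signal + 5), for the tested genes of 11 lists, with the number tested in brackets; each point is a gene by its brightest probe set, a gene may stand in more than 1 list, black bars are medians, and red points have an adjusted p under 0.05. The ringed points are vsx1 at -0.75, the only red point of the bipolar list, and ptf1a at -0.14, inside the grey points of its list.

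Of 42 genes listed for the hindbrain and midbrain, 31 were on the array and 14 were tested. The list is not free of retinal genes, since barhl2 also stands in the amacrine list and fgf8a in the retinal progenitor list. Of the 14, 4 were called higher and 0 lower in ethanol eyes, where 1.62% and 0.624% of all tested probe sets were. Above 0 stood 13 of the 14, with a median of 0.60, against 0.04 over all tested probe sets. The called members were en1b (1.76 ± 0.35, adjusted p = 0.0448), en2a (1.65 ± 0.30), olig3 (1.55 ± 0.29) and dmbx1a (1.43 ± 0.28), and the last 3 had an adjusted p of 0.0414 to 0.0436. The summed signal of the 31 genes ranged from 1776 to 3222 in ethanol eyes and from 1045 to 1859 in control eyes, and was 1880 in the untreated eyes. Of these sums, barhl2 alone made 807 in ethanol eyes and 775 in control eyes at 48 hpf. The untreated eyes had 84.9 for en1b, 117 for en2a, 146 for olig3 and 60.9 for dmbx1a. The highest control signals of these genes were lower, at 47.9, 78.9, 115 and 41.5. Whether ethanol eyes gained these transcripts or control eyes lost them was not tested. At 27 hpf the median of the 14 tested genes was 0.08 and the sums were 1776 in ethanol eyes and 1654 in control eyes, and there vsx1 stood at -0.77. Some dim, untested members were further apart at 27 hpf. The hindbrain gene hoxa2b had 46.5 in ethanol eyes and 2.93 in control eyes (log2 difference 2.70), and hoxb2a had 21.0 in ethanol eyes and 1.24 in control eyes (2.06). The untreated eyes at 24 hpf had 32.3 for hoxa2b and 16.6 for hoxb2a. For hoxb3a, tlx3b and gbx1 the difference at 27 hpf was 1.41, 1.40 and 1.31. At 30, 36 and 48 hpf the list's median was 1.04, 0.56 and 1.37, and vsx1 stood at -0.86, -0.54 and -0.82. The part of hindbrain and midbrain tissue in the vsx1 and ptf1a values was not tested at any stage.

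Both genes are also used outside the eye. Of the 22 pancreas genes on the array, 19 were too dim to be tested, and the other 3, sox9b, neurod1 and isl1a, are also retinal genes. The pancreatic markers prss1 and ins had signals of 3.42 to 10.9 and 0.97 to 5.52 over the 9 arrays. Some other untested members were brighter. Cpa5 had 8.52 to 31.3, highest in the 48 hpf control eyes, and nr5a2, gcga and sst1.1 reached 17.9, 15.7 and 15.6. In the spinal cord, where zebrafish vsx1 marks an interneuron lineage, 9 of 14 genes on the array were too dim to be tested. The 5 tested members were foxn4, gata2a, gata3, sox1a and en1b. Foxn4 also stands in the amacrine list and en1b in the hindbrain list. All 5 were above 0 (median 0.57, against 0.04 over all tested probe sets), and en1b was called higher, as were 1.62% of all tested probe sets. At 48 hpf gata2a had 234 in ethanol eyes and 73.0 in control eyes, gata3 278 in ethanol eyes and 90.6 in control eyes, and sox1a 238 in ethanol eyes and 101 in control eyes. Among the untested members lhx3 had 57.0 in ethanol eyes and 18.4 in control eyes at that stage, evx1 39.1 in ethanol eyes and 11.2 in control eyes, while hoxc8a did not exceed 2.72 on any array. Over the stages the summed signal of the 14 genes was 602 to 1798 in ethanol eyes and 603 to 1142 in control eyes. Of these sums, foxn4 alone made 807 in ethanol eyes and 395 in control eyes at 48 hpf.

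Genes whose pattern was most like each factor were named by Pearson's r over the 9 arrays among 5769 named genes. The arrays share a strong developmental trend, and 146 genes exceeded an r of 0.9 with vsx1 and 147 with ptf1a, so these values only describe. For vsx1 they were lpin2 (a phosphatidate phosphatase; r = 0.99), ldb1a (a cofactor of LIM homeodomain proteins; 0.98), tlcd3ba (0.98), isl1a (0.98) and the photoreceptor factor otx5 (0.98). For ptf1a they were six7 (0.99), crx (0.99), crabp1a (a retinoic acid-binding protein; 0.99), septin4a (0.99) and neurod1 (0.98). Every r with ptf1a takes in its signals at 24, 27 and 30 hpf, which are not known to stand above background. The size and order of these r values are therefore uncertain. On the same arrays six7 was also dim, with signals from 2.49 to 22.8. Crx and six7 are photoreceptor transcription factors and neurod1 a bHLH factor of amacrine cells and photoreceptors. The factors themselves correlated at 0.95. The most opposite patterns to vsx1 were those of apela (-0.98), an early embryonic signalling peptide gene, pih1d1 (-0.97) and mogat3a (-0.97), and to ptf1a those of dph1 (-0.98), crls1 (-0.98) and fmo5 (-0.98).

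The genes most like vsx1 did not share its ethanol call. All 5 had a mean ethanol difference below 0, from -0.52 for otx5 to -0.07 for ldb1a. An adjusted p under 0.05 was found for 0 of 5, and for 2.25% of all tested probe sets, so this count says little. The likeness was chosen on the same arrays, so the shared sign is no independent support. Otx5 had 46.9 in ethanol eyes and 86.1 in control eyes at 36 hpf, and 134 in ethanol eyes and 277 in control eyes at 48 hpf (mean -0.52 ± 0.19, adjusted p = 0.158). Of the 5 genes most like ptf1a, 0 were called for ethanol, where 2.25% of all tested probe sets were. Their differences ran from -0.43 for crx to -0.10 for neurod1. At 30 hpf several of this group were lower in the single ethanol array, where crx had 32.3 in ethanol eyes and 69.4 in control eyes, six7 11.0 in ethanol eyes and 22.8 in control eyes, and ptf1a 11.1 in ethanol eyes and 19.5 in control eyes. By 36 hpf the ethanol eyes had 276 for crx and 213 for six7, against 347 and 241 in control eyes.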

How the data were processed

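Per the labels' protocols, total RNA was extracted from dissected eye tissue and labelled for Affymetrix arrays, 9 in all. The deposited values are signal intensities on a linear scale, made with MAS5 per the submitters' processing notes; its version is not given in the sources used here. No depth exists for array signals, and 1 array per condition limits the precision. Of 15617 probe sets, 115 controls were left out, signals became log2(signal + 5), and the upper 60% by mean over the arrays (9301) was tested. Gene symbols came from the platform annotation (10802 probe sets with 1 symbol, 135 with several, 4680 with none listed), and 10718 were looked up by gene identifier. Each gene was taken by its brightest probe set.

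Models were fitted with limma 3.58.1 (R 4.3.3) over all tested probe sets, with Benjamini-Hochberg adjustment: ethanol on 8 arrays with stage as a block (3 residual degrees of freedom), and the slope on hpf and its product with ethanol on 9 arrays. Fits were also run on simulated arrays, with less noise than the residual spread here and planted changes larger than the vsx1 difference. That run does not show how well a difference of the vsx1 size is found. The factors, lists and rules were chosen with earlier results of these data known. Genes named were both factors, the list members called for ethanol, and the 5 most and 3 least alike in pattern. Some but not all of the brightest and most changed list members were named. Other examples were chosen after their values were seen. Alternatives varied the pseudocount, filter, normalization, arrays and labels. No sequence or genome coordinate was used here.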

Additional observations from a re-analysis of the deposited data

How the results depend on the processing

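The fall of vsx1 kept its direction in all 11 alternatives and its call in 4 of them. It lost the call with no filter (-0.75, adjusted p = 0.0538), quantile normalization (-0.81, 0.0629), without the 27 (-0.74), 30 (-0.71) or 36 hpf arrays (-0.82), on the 24, 27 and 48 hpf arrays alone (-0.80, 0.481) and with the treatment characteristic (-0.35, 1.00). The last 2 and the fits without a stage use fewer pairs. The treatment characteristic also turns the 36 hpf pair round, and its -0.35 compares with -0.71 when only the 30 hpf arrays are left out. For the other alternatives the cause was not tested. The uncalled ptf1a difference reversed to 0.010 without the 30 hpf arrays, 0.076 with the treatment characteristic and 0.065 on the 24, 27 and 48 hpf arrays, and ptf1a was not among the upper 30% of probe sets. The uncalled interaction of vsx1 reversed with a pseudocount of 16 (-0.062), without the 27 (-0.024) or 30 hpf arrays (-0.21), with the treatment characteristic (-0.43) and on the 24, 27 and 48 hpf arrays (-0.023), and that of ptf1a without the 48 hpf arrays (1.15). Both slopes kept their call in every alternative in which the gene was tested.

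Ethanol calls numbered 209 (151 higher, 58 lower). They were 326 with a pseudocount of 16, 67 with no filter, 14 without the 30 hpf arrays, 4 without the 36 hpf arrays, and in limma 0 with the treatment characteristic and on the 24, 27 and 48 hpf arrays (100 and 873 at an unadjusted p under 0.05). Median centring gave 510 (139 higher, 371 lower) and quantile normalization 23 (12 and 11). Centring moved the median of all probe sets from 0.04 to -0.10; relative to that median vsx1 stood at -0.79 both ways. Development calls were 1531, and 624 in the upper 30% of probe sets, where fewer were tested. Stage as a block already pairs the ethanol and control arrays; no further replicate block could be fitted, since each condition had 1 array and no replicate number. Low signal limits ptf1a before 36 hpf.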

Other observations

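Some genes of maturing interneurons and photoreceptors appeared only at 48 hpf and were too dim on average to be tested, so they are given as single-array values chosen after they were seen. The calretinin gene calb2b, of amacrine and ganglion cells, had signals of 10.9 to 18.0 at 27 to 36 hpf and 66.9 at 48 hpf in ethanol eyes, against 4.95 to 10.6 at 27 to 36 hpf and 478 at 48 hpf in control eyes. The parvalbumin gene pvalb6 had 50.9 in ethanol eyes and 170 in control eyes at 48 hpf. The adaptor protein gene samsn1a had 53.9 in ethanol eyes and 106 in control eyes, and the cone transducin subunit gene gngt2b had 34.0 in ethanol eyes and 251 in control eyes at that stage. In each of these genes the brighter array of the 48 hpf pair was the control. Other untested genes of the lists went the other way at 48 hpf: the LIM homeodomain gene lhx3 had 57.0 in ethanol eyes and 18.4 in control eyes, nr4a2b had 32.0 in ethanol eyes and 24.9 in control eyes, and the dim calb1 had 12.5 in ethanol eyes and 5.46 in control eyes. The tyrosine hydroxylase gene th had 7.43 in ethanol eyes and 1.2 in control eyes. None of these differences has a replicate check.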
